A study of Mus musculus with 16 samples.

Results

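Crct1, Cnfn, Sprr3, Sprr1a, Plac8, Psca, Ivl, Sbsn and Krtdap are 9 genes, none of them a keratin, that cornifying stratified epithelium uses in its outer layers. They were chosen by their levels in these same libraries, among which libraries labelled lower stood high at late stages, and their rows were read from all 16 count tables. They are 9 of the 23337 genes in each table, and 8 of them were among the 16287 genes that passed the filter on low counts. Ivl did not pass, and Crct1, Cnfn and Psca passed only through libraries labelled lower. Because the difference between late libraries labelled lower and the rest took part in the choice, that difference is given as a description with no test. The change with stage inside the libraries labelled upper was not itself that contrast and was tested. The libraries labelled upper were part of the rest, however, and the choice was made with earlier results of these data known. The test is therefore not fully independent of the choice.

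The study measured poly(A) RNA in mouse first molar germs, the primordia from which the tooth grows, with 8 libraries labelled upper and 8 labelled lower. Each label had 1 library at each step of 0.5 days from E14.5 to E18.0 (embryonic days). The embryos were wild type, labelled male and of CD1, an outbred laboratory strain, and none was treated. Each library pooled the 2 germs (left and right) of 1 embryo, and per the labels both libraries of a stage share that embryo, here numbered as individuals 1 to 8 in order of stage. Individuals 1 to 4 (E14.5 to E16.0) are called early below and individuals 5 to 8 (E16.5 to E18.0) late. Library totals of gene counts ran from 33146758 to 44565205, and CPM is a count scaled by that total to a size common to all libraries.

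The labels and the data differed in a pair of respects that bear on every comparison. Pou3f3, a transcription factor gene, alternated between individuals in both labels, at 4.45 to 10.1 CPM in the odd-numbered individuals and 60.1 to 131.5 CPM in the even-numbered ones. Xist, the RNA of the inactive X chromosome, was at 431.8 to 1928 CPM in all 16 libraries labelled male, while Uty, Kdm5d and Eif2s3y, on the Y chromosome, had 0 counts in each. The names labelled upper and labelled lower are therefore used throughout. The libraries labelled upper were sequenced on one flow cell and those labelled lower on another, and within each label the early and the late libraries were on different lanes. Label and flow cell therefore cannot be told apart, nor can lane and early or late stage in either label. Each stage had 1 library per label, so a set of 4 late or 4 early libraries spans 4 stages and its spread holds stage as well as replicate error. Markers of dental mesenchyme (Prrx1, Msx1, Pax9, Lhx6, Lhx8) were present in all 16 libraries, with summed levels of 430.5 to 1466 CPM.

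In stratified epithelium, cells leave the basal layer, move outward and build a cornified envelope beneath the plasma membrane, a shell of proteins that transglutaminases cross-link. Involucrin, loricrin and the small proline-rich proteins are its bricks, and many of their genes sit side by side in the epidermal differentiation complex. The mouse oral mucosa cornifies as well, whereas the enamel epithelium of a tooth germ does not form a cornified layer. A molar germ is continuous with the oral epithelium above it through the dental lamina.

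In the GRCm38.p6 assembly (mm10), 4 of the 9 genes lie on chromosome 3 in the epidermal differentiation complex. Sprr3 is at chr3:92456502-92458720, Sprr1a at chr3:92483954-92485881, Ivl at chr3:92570899-92573790 and Crct1 at chr3:93014205-93015686. Sbsn (chr7:30732674-30756134) and Krtdap (chr7:30787905-30791089) are neighbours on chromosome 7, and Cnfn is at chr7:25367616-25369724 on the same chromosome. Plac8 is at chr5:100551589-100572253 and Psca at chr15:74714839-74717065. The annotated span of Sbsn overlaps that of Gapdhs, and because the libraries did not mark strand, reads in the overlap could not be assigned by strand.

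RefSeq promoters were matched for 7 of the 9 genes, all but Crct1 and Psca. The stretches below are the 150 bases before the annotated start, 5′ to 3′ on the gene's strand, and are shown for 3 genes that were high in the late libraries labelled lower and for Krtdap, which was not separated in this way. Capitals mark TATAAA, the core of a TATA box, and TGANTCA, the core of an AP-1 site.
Sprr1a: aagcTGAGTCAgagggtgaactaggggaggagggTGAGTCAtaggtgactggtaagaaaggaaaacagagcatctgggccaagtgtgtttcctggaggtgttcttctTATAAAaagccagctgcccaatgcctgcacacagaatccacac
Sprr3: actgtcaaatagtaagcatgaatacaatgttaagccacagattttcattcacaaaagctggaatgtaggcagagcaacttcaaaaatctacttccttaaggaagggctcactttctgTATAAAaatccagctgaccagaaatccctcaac
Cnfn: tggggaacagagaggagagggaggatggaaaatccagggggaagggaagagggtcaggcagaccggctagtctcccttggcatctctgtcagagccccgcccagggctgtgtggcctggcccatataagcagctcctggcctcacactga
Krtdap: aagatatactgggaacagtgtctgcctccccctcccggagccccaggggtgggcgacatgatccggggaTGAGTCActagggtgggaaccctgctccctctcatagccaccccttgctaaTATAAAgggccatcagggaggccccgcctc
The stretches are chr3:92485882-92486031 (minus strand) for Sprr1a, chr3:92458721-92458870 (minus) for Sprr3, chr7:25369725-25369874 (minus) for Cnfn and chr7:30787755-30787904 (plus) for Krtdap. In windows of 300 bases (250 before the start and 50 after), searched on both strands, TATAAA was found in 4 of the 7 genes (Sprr3, Sprr1a, Ivl, Krtdap) and in 13.6% of 32851 mouse promoters. TGANTCA was found in 4 of the 7 (Sprr1a, Ivl, Sbsn, Krtdap) and in 7.81% of all promoters. The windows of Ivl, Sbsn and Plac8 belong to annotated starts that lie inside the span given for the gene. CACCC, the core of a Krüppel-like factor site, was found in 7 of the 7 and in 57.5% of all promoters. The stretch of Sprr1a holds 2 TGANTCA matches, which begin 146 and 116 bases before the start, and the second shares bases with a CACCC match on the other strand that begins at 119. Krtdap has TATAAA at 30 and TGANTCA at 81 bases before its start, so the printed motifs occur both in genes that were separated and in 1 that was not. A match is a description of these letters and not of a bound site. The search took exact letters, so near variants, such as tataag in the stretch of Cnfn, were not counted.

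Crct1, Cnfn, Sprr3, Sprr1a and Sbsn were higher in each of the 4 late libraries labelled lower than in each of the 12 others. Across all genes past the filter, 3.24% had this pattern (527 genes). All 8 libraries labelled lower lay above all 8 labelled upper for Crct1, Cnfn, Sprr3 and Plac8, a pattern held by 3.52% of the genes past the filter (573 genes). Both counts restate the contrast by which the genes were chosen, and the filter adds to it for genes that passed only through libraries labelled lower, so nothing is read from them. The individuals with low and with high Pou3f3 each gave 2 late and 2 early libraries per label, and the separation of the 5 genes held within both sets, since it held for every library.

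**Figure D1:**
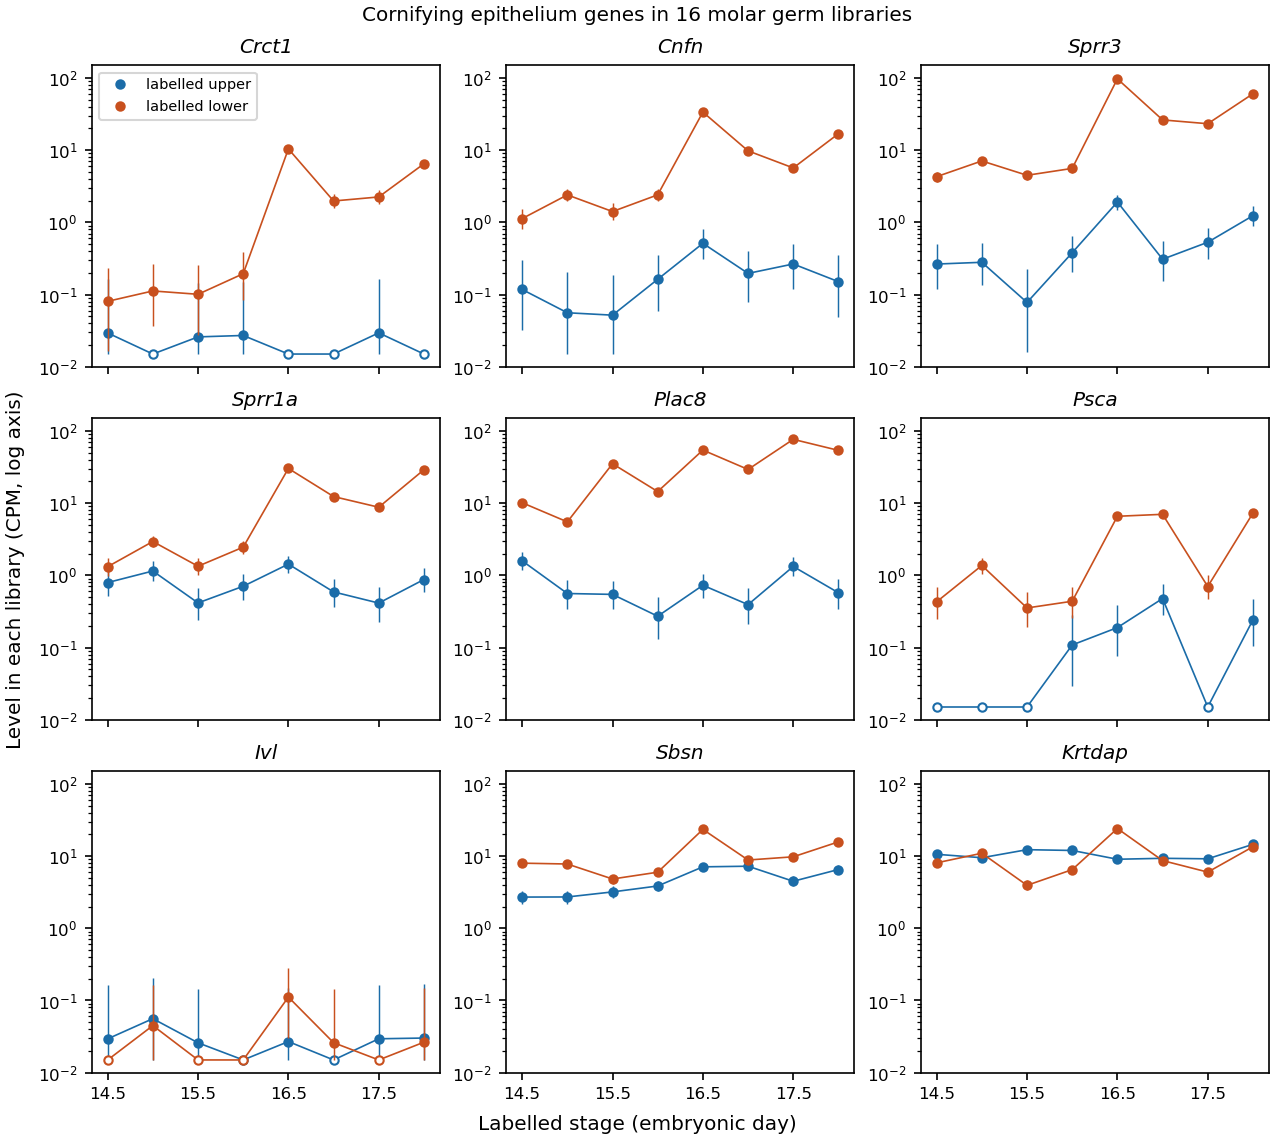
Level of each of the 9 genes in CPM (log axis) against labelled stage in embryonic days, with 1 point per library, blue for labelled upper and orange for labelled lower, vertical bars for exact 95% Poisson intervals and open symbols at the foot for libraries with 0 counts. The late libraries labelled lower stand above all others for Crct1, Cnfn, Sprr3, Sprr1a and Sbsn, and the lines cross for Krtdap and Ivl.

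Sprr3 and Sprr1a encode small proline-rich proteins, short cross-bridging proteins of the envelope. Sprr3 was at 23.2 CPM in individual 7, 26.2 in individual 6, 60.4 in individual 8 and 97.2 in individual 5 of the late libraries labelled lower, and at 4.30, 7.09, 4.49 and 5.59 CPM in individuals 1 to 4. In the libraries labelled upper its lowest, median and highest levels were 0.0778, 0.344 and 1.91 CPM (177 counts in all). The 3 sets of libraries did not overlap for Sprr3. Sprr1a was at 30.2, 12.3, 8.77 and 29.0 CPM in individuals 5 to 8 labelled lower and at 1.32, 2.94, 1.34 and 2.45 CPM in individuals 1 to 4. Its levels labelled upper ran from 0.413 through a median of 0.749 to 1.43 CPM (227 counts). For Sprr1a the early libraries labelled lower overlapped with the libraries labelled upper, and only the late ones stood apart. The ratio of the late to the early median labelled lower was 8.60 for Sprr3 and 10.9 for Sprr1a, and without individual 5 it was 5.21 and 6.51. Reads that fit several near-identical genes of the Sprr family may be lost or shared, so the levels of both are uncertain in this respect.

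Cnfn encodes cornifelin, a protein of the envelope from the same family as Plac8. Its levels labelled lower were 33.7, 9.78, 5.67 and 16.9 CPM in individuals 5 to 8 and 1.13, 2.40, 1.41 and 2.41 CPM in individuals 1 to 4. The libraries labelled upper had 0.0518, 0.157 and 0.512 CPM at the lowest, the median and the highest (54 counts). Every early library labelled lower was thus already above every library labelled upper, and the late ones were higher again, by a ratio of medians of 7.0 (5.13 without individual 5).

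Crct1, a cysteine-rich gene of the epidermal differentiation complex, had the largest late-to-early ratio of the 8 genes past the filter. It was at 10.4, 1.98, 2.25 and 6.48 CPM (374, 76, 90 and 245 counts) in the late libraries labelled lower and at 0.0806, 0.112, 0.101 and 0.194 CPM (3, 5, 4 and 8 counts) in the early ones. In the 8 libraries labelled upper it had 4 counts in all (exact 95% Poisson interval 1.09 to 10.2, which covers counting error only) and 0 counts in 4 of them. The ratio of the late to the early median labelled lower was 41.0, and it was 21.1 without individual 5. The 4 early libraries labelled lower hold 20 counts in all, so the ratio has a wide counting error.

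Ivl encodes involucrin, an early scaffold of the envelope in skin. It had 15 counts over all 16 libraries (exact 95% Poisson interval 8.40 to 24.7) and 0 counts in 6 of them. Counts labelled lower were 0, 2, 0 and 0 in individuals 1 to 4 and 4, 1, 0 and 1 in individuals 5 to 8, and those labelled upper were between 0 and 2. A difference in Ivl between the sets of libraries was not detectable at this depth.

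Plac8, which encodes a small cysteine-rich protein also known from myeloid cells, and Psca, which encodes a surface protein held by a lipid anchor, were not separated between late and early libraries labelled lower. Plac8 was at 54.3, 29.3, 76.4 and 53.8 CPM in individuals 5 to 8 labelled lower and at 10.1, 5.50, 35.1 and 14.46 CPM in individuals 1 to 4. Its lowest, median and highest levels labelled upper were 0.271, 0.566 and 1.59 CPM (210 counts). The early library of individual 3 exceeded the late library of individual 6, so the late and early libraries labelled lower overlapped, while all 8 were above the libraries labelled upper. Within each successive pair of individuals, in both labels, the odd-numbered one, with low Pou3f3, had more Plac8 than the even-numbered one. The summed level of 5 leukocyte markers (Ptprc, Cd52, Lyz2, Csf1r, Tyrobp) was 33.0 to 57.0 CPM in the libraries labelled upper, 43.2 to 88.2 CPM in the early and 74.4 to 92.3 CPM in the late ones labelled lower, and its part in the Plac8 values was not tested. Among the early libraries labelled lower, individual 3 had the highest sum of these markers and individual 2 the lowest (88.2 and 43.2 CPM), as it was for Plac8. Labelled upper went otherwise. There Plac8 was highest in individual 1 (1.59 CPM), where the marker sum was lowest (33.0 CPM). The marker sum was highest in individual 6 (57.0 CPM), where Plac8 was at 0.393 CPM. Within pairs the odd-numbered individual had the higher marker sum in labelled lower and the lower one in labelled upper.

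Psca was at 6.57, 6.997 and 7.27 CPM in individuals 5, 6 and 8 labelled lower but at 0.700 CPM (28 counts) in individual 7. The early libraries labelled lower had 0.430, 1.37, 0.353 and 0.437 CPM, so that individual 7 lay within their range. The libraries labelled upper had at most 0.477 CPM, a median of 0.0542 CPM and 0 counts in 4 of 8. The late-to-early ratio of medians labelled lower was 15.6 for Psca and 4.40 for Plac8, and leaving out individual 5 moved neither by much (16.1 and 4.37).

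Sbsn and Krtdap encode secreted proteins of differentiating keratinocytes, suprabasin and keratinocyte differentiation-associated protein. Sbsn was at 23.4, 8.82, 9.77 and 15.7 CPM in individuals 5 to 8 labelled lower and at 7.98, 7.76, 4.82 and 5.98 CPM in individuals 1 to 4. Labelled upper it ran from 2.70 through a median of 4.17 to 7.24 CPM (1343 counts). The late libraries labelled lower stood apart for Sbsn by a small margin, since the lowest of them was 8.82 CPM and the highest of the others 7.98 CPM. Krtdap was at 24.1, 8.66, 6.0 and 13.5 CPM in individuals 5 to 8 and at 8.06, 10.95, 3.93 and 6.49 CPM in individuals 1 to 4 labelled lower. Its lowest, median and highest levels labelled upper were 9.04, 10.03 and 14.54 CPM (3073 counts). Krtdap therefore overlapped in all 3 sets, and 2 of the 4 late libraries labelled lower were below every library labelled upper. The late-to-early ratio of medians labelled lower was 1.86 for Sbsn and 1.52 for Krtdap (1.42 and 1.19 without individual 5). Just inside and just outside the separation stood Sbsn and Plac8.

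The library of individual 5 labelled lower (E16.5) had the highest level of 7 of the 9 genes among the libraries labelled lower. Its level was 4.63 times the median of the 3 other late libraries for Crct1, 3.70 times for Sprr3, 3.44 times for Cnfn, 2.78 times for Krtdap, 2.45 times for Sprr1a and 2.40 times for Sbsn. For Plac8 and Psca it was 1.01 and 0.939 times that median. The late libraries labelled lower therefore did not follow the order of stage, with individual 5, the earliest of them, above individuals 6 and 7 in 6 of the 8 genes past the filter. Without that library the late libraries labelled lower stood above the 12 others for the same 5 genes. This is no check, since leaving out a late library cannot undo a separation that already held.

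The summed level of the suprabasal oral keratins (Krt4, Krt13, Krt6a, Krt6b, Krt16, Krt76, Krt78, Krt24), whose filaments fill the layers above the basal cells, was highest in the same library as 7 of the 9 genes. Individual 5 labelled lower had 1386 CPM of them, the other late libraries 384.6 to 571.9 CPM, the early ones 179.0 to 388.7 CPM and those labelled upper 82.3 to 386.5 CPM. Among the late libraries labelled lower, both sums fell in the same order, from individual 5 through 8 and 7 to 6. The keratins were at 1386, 571.9, 407.2 and 384.6 CPM there, and the 9 genes at 280.0, 203.0, 132.8 and 104.1 CPM. The place of individual 7 above individual 6 in the sum of the 9 genes rested on Plac8, at 76.4 and 29.3 CPM. Cnfn, Sprr3, Sprr1a, Psca and Krtdap were lower in individual 7 than in individual 6, and Crct1 and Sbsn were higher. In labelled upper both sums were highest in individual 8 and lowest in individual 2. Among the early libraries labelled lower, individual 3 had the least keratin and the highest sum of the 9 genes (179.0 and 51.6 CPM). Plac8 alone gave 35.1 CPM of that sum. Psca, Sbsn and Krtdap were lowest in individual 3 among these libraries, and Crct1, Cnfn, Sprr3 and Sprr1a were lowest in individual 1. The sums also differed in order between sets of libraries. Individual 6 labelled lower (384.6 CPM of keratins, 104.1 CPM of the 9 genes) was just below individual 1 labelled lower (388.7 and 33.4 CPM) and individual 8 labelled upper (386.5 and 24.2 CPM) in keratins. Krt4 was at 96.1 to 364.2 CPM in the late libraries labelled lower, 24.0 to 51.1 CPM in the early ones and 0.617 to 43.8 CPM in those labelled upper, where the highest was 6.06 CPM without individual 8. Markers of the suprabasal epidermis that were in the tables (Krt1, Krt10, Krt2, Lor) overlapped in the 3 sets, at 105.1 to 353.3, 81.8 to 238.3 and 71.9 to 296.5 CPM. Basal epithelium markers (Krt5, Krt14, Krt15, Trp63, Epcam, Cdh1, Itga6) also overlapped, at 3090 to 4090, 3182 to 4131 and 2647 to 4599 CPM. In these bulk libraries more cells of a type and more RNA per cell cannot be told apart.

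Other tissues moved in part with the same contrast. Dental mesenchyme markers summed to 430.5 to 754.7 CPM in the late and 566.2 to 924.2 CPM in the early libraries labelled lower, against 895.9 to 1466 CPM in those labelled upper. Shh, Sp6 and Fgf9, genes of dental epithelium, summed to 989.1 to 1675, 629.3 to 1118 and 185.9 to 468.2 CPM in the same order, so that all libraries labelled lower were above all labelled upper. Markers of bone (272.8 to 362.5, 280.5 to 398.7 and 280.7 to 574.6 CPM), of salivary gland (0.634 to 1.03, 0.340 to 0.832 and 0.471 to 0.999 CPM) and of skeletal muscle (3.5 to 15.3, 1.87 to 9.59 and 0.941 to 43.0 CPM) overlapped. The part of these tissues in the levels of the 9 genes was not tested.

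**Figure D2:**
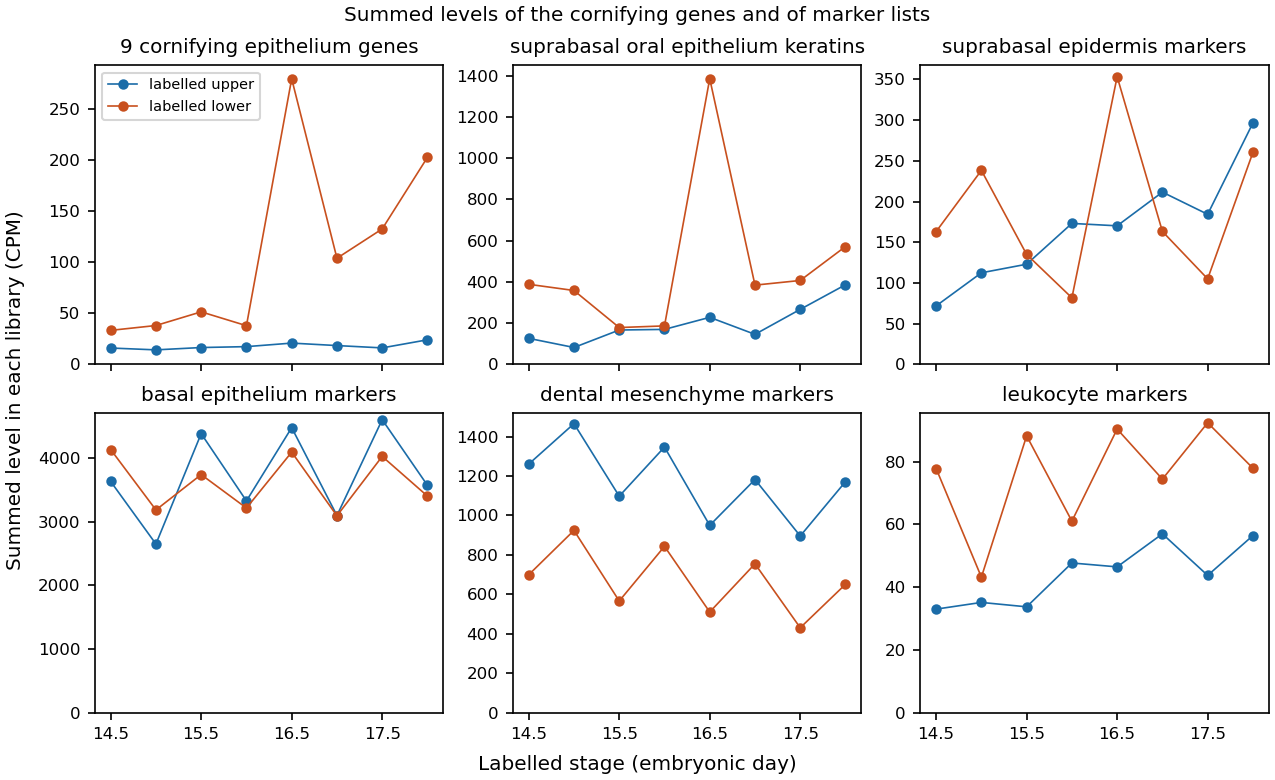
Summed level in CPM (linear axis from 0) of the 9 genes and of 5 marker lists against labelled stage in embryonic days, 1 point per library, blue for labelled upper and orange for labelled lower. The 9 genes and the suprabasal oral keratins (highest at 1386 CPM) both peak in the library of individual 5 labelled lower at E16.5, whereas the basal epithelium markers overlap between labels.

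Over all 16 libraries, with a smooth curve of stage in the model, the fitted log2 difference of labelled lower over labelled upper was 7.28 ± 1.12 (SE) for Crct1, 5.47 ± 0.62 for Cnfn, 5.36 ± 0.64 for Sprr3 and 5.36 ± 0.53 for Plac8. It was 4.59 ± 0.77 for Psca, 3.27 ± 0.67 for Sprr1a, 1.17 ± 0.25 for Sbsn and -0.10 ± 0.30 for Krtdap. The median over the 8 genes was 4.97, of which 3 passed the filter through labelled lower alone, whereas the median over all 16287 genes, coded as labelled upper over labelled lower, was 0.0059. Across all genes, 18.1% were called higher in labelled lower and 18.1% lower there (edgeR, adjusted p below 0.05). Without individual 5, Crct1 gave 6.0, Cnfn 5.06, Sprr1a 2.85 and Krtdap -0.45.

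The question open to a test was whether these genes changed with stage in the libraries labelled upper, where 3.72% of all genes rose and 2.41% fell. None of the 8 genes past the filter was called (edgeR quasi-likelihood F test, adjusted p below 0.05), 1 had an unadjusted p below 0.05, and DESeq2 called 1, in both cases Sbsn. Of all 16287 genes, 4049 had an unadjusted p below 0.05 there, and DESeq2 called 2049. Sbsn had a slope of 0.41 ± 0.11 log2 units per day (SE, edgeR adjusted p = 0.0566, DESeq2 adjusted p = 0.00375), and its 4 late libraries labelled upper, at 4.48 to 7.24 CPM, were all above the 4 early ones, at 2.70 to 3.85 CPM. Leaving out 1 individual at a time moved the edgeR adjusted p of Sbsn between 0.0269 and 0.224, below 0.05 without individual 5 (0.0416) or without individual 7 (0.0269). Psca had a slope of 1.11 ± 0.54 (edgeR adjusted p = 0.238) and Sprr3 one of 0.65 ± 0.33 (edgeR adjusted p = 0.259). The slope was 0.43 ± 0.30 for Cnfn (edgeR adjusted p = 0.403) and 0.04 ± 0.07 for Krtdap (edgeR adjusted p = 0.761). For Sprr1a it was -0.08 ± 0.18 (edgeR adjusted p = 0.817), for Plac8 -0.13 ± 0.21 (0.749) and for Crct1 -0.33 ± 0.52 (0.733), the last on 4 counts. The median slope of the 8 genes was 0.226 against 0.000614 over all genes.

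Labelled lower slopes are a description, since the late libraries labelled lower took part in the choice of the genes. They were 1.78 ± 0.63 for Crct1, 1.25 ± 0.35 for Sprr1a, 1.16 ± 0.40 for Sprr3, 1.14 ± 0.45 for Cnfn, 1.07 ± 0.41 for Psca and 0.83 ± 0.22 for Plac8. The values for Sbsn and Krtdap were lower, 0.32 ± 0.18 and 0.16 ± 0.22. The median was 1.11 against 0.000872 over all genes, of which 2.63% rose and 1.49% fell (edgeR). The difference between the slopes of the 2 labels was not tested for these genes.

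**Figure D3:**
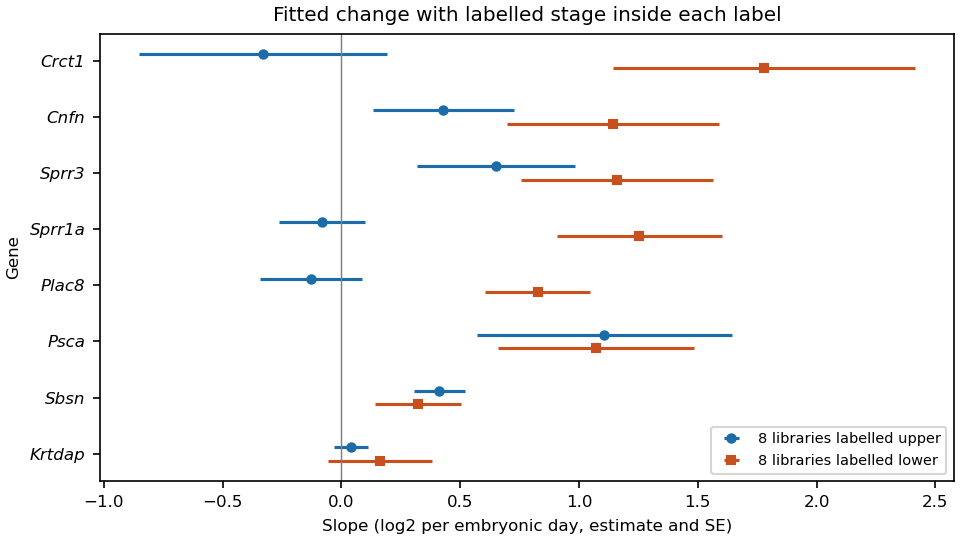
Fitted slope in log2 units per embryonic day (estimate and SE) of the 8 genes past the filter, blue circles for the 8 libraries labelled upper and orange squares for the 8 labelled lower. Slopes labelled lower lie between 0.16 and 1.78, and none labelled upper passed the test.

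Other envelope genes in the same libraries were read from a list of 37, of which 34 were in the tables and 16 passed the filter. In the comparison of labels 13 of these 16 were called higher in labelled lower and 0 lower there (edgeR, adjusted p below 0.05), beside 18.1% of all genes in each direction. At an unadjusted p below 0.05, 14 were higher and 0 lower, beside 7403 of all 16287 genes in either direction. DESeq2 called 10 and 0, beside 3211 and 3020 of all genes. Since 7 of the 16 (Tgm5, Sprr1b, Rptn, Hrnr, Lce3a, Lce3c, Lce3f) passed the filter only through libraries labelled lower, their direction was fixed by the filter. Of the 9 that also reached the filter level in at least 2 libraries labelled upper, 6 were called higher in labelled lower and 0 lower there, beside 17.4% of all such genes higher. Tgm3, a transglutaminase, had a log2 difference of labelled upper over labelled lower of -2.66 ± 0.31 (SE, edgeR adjusted p = 2.35e-05). Rptn, repetin, and Crnn, cornulin, are S100-fused proteins of the envelope. Crnn gave -3.58 ± 0.54 (edgeR adjusted p = 0.000173). The value of Rptn, -8.22 ± 1.11, is a description with no test, since Rptn is among the 7 genes whose direction the filter fixed. Tchh, trichohyalin, gave -1.75 ± 0.25 (edgeR adjusted p = 0.00013).

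The late libraries labelled lower lay above the 12 others in 7 of the 16 envelope genes past the filter, beside 3.24% of all such genes. These were Tgm5, Lor, Rptn, Hrnr, Lce3a, Lce3c and Lce3f, named here after their values were seen. All but Lor and Rptn passed the filter only through the late libraries labelled lower. Of the 10 envelope genes that reached the filter level in at least 2 of the 12 other libraries, 2 had the pattern, beside 3.09% of all such genes. Lor, loricrin, was at 6.95 to 38.5 CPM in the late libraries labelled lower, 2.58 to 5.12 CPM in the early ones and 2.26 to 3.5 CPM in those labelled upper. Rptn was at 3.85 to 28.0, 0.0269 to 1.61 and 0 to 0.136 CPM in the same order, with 7 counts in all the libraries labelled upper. Lce3a and Lce3f, late cornified envelope genes, had 0 counts in all 12 other libraries and 0.156 to 3.90 and 0.156 to 2.42 CPM in the late ones labelled lower. In each of these 7 genes the late group overlapped neither the early libraries labelled lower nor those labelled upper. Between Sprr3 and Crct1, over 559.2 kb of chromosome 3, RefSeq places 24 other coding genes, of which 21 were in the tables and 4 (Kprp, Lce3a, Lce3c, Lce3f) passed the filter. Between Sbsn and Krtdap lies Dmkn, dermokine, which was at 10.5 to 34.0 CPM in the late and 8.17 to 18.6 CPM in the early libraries labelled lower and 9.28 to 16.99 CPM in those labelled upper, with overlap.

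**Figure D4:**
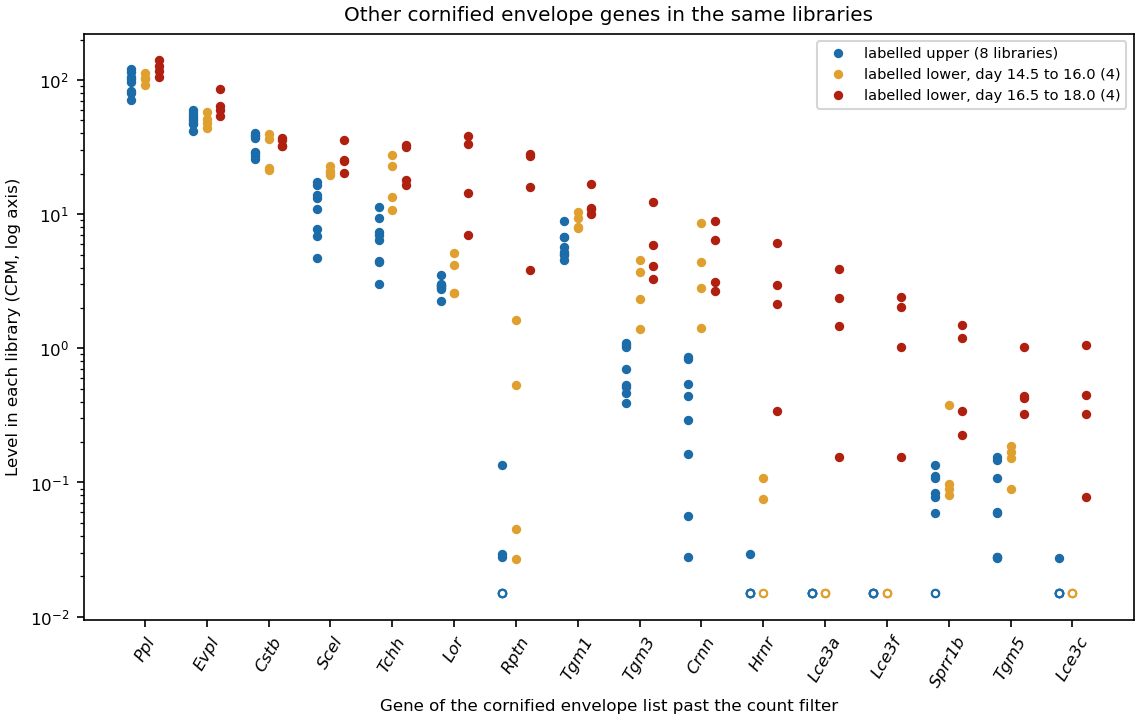
Level in CPM (log axis) of the 16 genes of the cornified envelope list that passed the filter, 1 point per library, blue for labelled upper, yellow for early and red for late labelled lower, with open symbols at the foot for 0 counts. For Lor, Rptn, Hrnr, Tgm5, Lce3a, Lce3c and Lce3f all red points lie above the others, from 6.95 CPM upward for Lor.

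With stage, Tgm3 and Tgm1, which encodes the membrane-bound transglutaminase of keratinocytes, rose in labelled upper (2 of 16 envelope genes, 0 fell), beside 3.72% of all genes rising and 2.41% falling. The 7 that passed the filter only through libraries labelled lower had 0 (Lce3a, Lce3f) to 22 counts (Tgm5) over all libraries labelled upper. A call in labelled upper was hardly open to them, so 2 of 16 is not on a par with the share of all genes. Tgm3 had a slope of 0.43 ± 0.10 log2 units per day (edgeR adjusted p = 0.0415) and Tgm1 one of 0.23 ± 0.06 (edgeR adjusted p = 0.0444). The call was lost in 8 of 8 fits that left out 1 individual for Tgm3 and in 6 of 8 for Tgm1. In labelled lower 0 of 16 were called by edgeR, 6 had an unadjusted p below 0.05, all rising, and DESeq2 called 2. Beside these stand 3610 of all 16287 genes at that p in either direction and 1801 called by DESeq2. Since 6 of the 16 envelope genes passed the filter only through the late libraries labelled lower, the filter favoured a rise there. Nothing is therefore read from these counts.

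Of 14 genes of desmosomes and corneodesmosomes, the junctions that hold cornifying cells together, 3 were called higher in labelled lower and 2 lower there (edgeR), beside 18.1% of all genes each way. With the individual as a block, 4 were called higher in labelled lower and 5 lower there. Cdsn, corneodesmosin, the adhesive protein of cornified cells, was at 6.22 to 23.1 CPM in the late libraries labelled lower, 0.808 to 1.73 CPM in the early ones and 0.224 to 0.852 CPM in those labelled upper (log2 labelled upper over labelled lower -3.17 ± 0.71, edgeR adjusted p = 0.00314). Dsc1, a desmocollin of outer layers, gave -2.18 ± 0.41 (edgeR adjusted p = 0.00089). Pkp2, a plakophilin of simple epithelia, was higher in labelled upper by 0.97 ± 0.17 (edgeR adjusted p = 0.000553), and so was Dsg3, a desmoglein of the basal layers, by 0.32 ± 0.10 (edgeR adjusted p = 0.0295, lost in 5 of 8 fits without 1 individual). No gene of this list was called with stage by edgeR in either label. Labelled upper had 0 at an unadjusted p below 0.05 and 0 called by DESeq2, and labelled lower had 1 and 1. Over all 16287 genes these counts were 4049 and 2049 in labelled upper and 3610 and 1801 in labelled lower.

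Among 19 transcription factors and co-factors of stratified differentiation, 8 were called higher in labelled lower and 3 lower there (edgeR), beside 18.1% of all genes each way. The largest separation for its error was that of Maf, a leucine-zipper factor, at -0.64 ± 0.07 (labelled upper over labelled lower, edgeR adjusted p = 1.11e-05). Prdm1, a repressor active in cornifying cells, was also higher in labelled lower (-0.68 ± 0.09, edgeR adjusted p = 9.08e-05), as was Hopx, a homeodomain-only co-factor (-1.85 ± 0.31, edgeR adjusted p = 0.000435). Prdm1 rose with stage in labelled lower, by 0.21 ± 0.04 per day (edgeR adjusted p = 0.0289, lost in 4 of 8 fits without 1 individual). It was the 1 gene of this list called there, beside 2.63% of all genes rising and 1.49% falling. None of the 19 was called with stage in labelled upper by edgeR. At an unadjusted p below 0.05 there were 5 (3 rising, 2 falling), beside 4049 of all 16287 genes. DESeq2 called 3 (2 rising, 1 falling), beside 2049 of all genes. Several of these factors also act in dental epithelium and mesenchyme.

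Of 28 measured suprabasal, surface and protease-inhibitor genes, 13 were called higher in labelled lower and 2 lower there (edgeR), beside 18.1% of all genes each way. Of the 24 that also reached the filter level in at least 2 libraries labelled upper, 9 were higher in labelled lower and 2 lower there. Of all such genes, 17.4% were higher in labelled lower. Ly6g6c, a Ly6-family surface protein as Psca is, gave -3.51 ± 0.51 (edgeR adjusted p = 0.000135). The serine protease inhibitors Serpinb12 and Serpinb3a gave -3.0 ± 0.49 (edgeR adjusted p = 0.000304) and -3.53 ± 0.61 (edgeR adjusted p = 0.000494), and Gltp, a glycolipid transfer protein, -0.29 ± 0.05 (edgeR adjusted p = 0.000321). In labelled upper 2 of the 28 rose and 0 fell with stage, beside 3.72% and 2.41% of all genes. Of the 28, 4 passed the filter only through libraries labelled lower, so a call in labelled upper was less open to them. Ly6d, a Ly6 protein of stratified epithelium, rose by 0.85 ± 0.13 per day (edgeR adjusted p = 0.0105, below 0.05 in all 8 fits without 1 individual), and S100a9, named after its values were seen, was the other. In labelled lower 0 of 28 were called by edgeR, 4 had an unadjusted p below 0.05 (3 rising, 1 falling) and DESeq2 called 3 (2 rising, 1 falling). The counts over all 16287 genes were 3610 at that p and 1801 by DESeq2. Of the 28 genes, 3 passed the filter only through the late libraries labelled lower, which favoured a rise there.

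Of the 7 keratins of the suprabasal list past the filter, 2 were called rising with stage in labelled upper and 0 falling. Over all genes 3.72% rose and 2.41% fell there. Krt4 and Krt13 rose, by 1.22 ± 0.23 and 0.85 ± 0.15 log2 units per day (edgeR adjusted p = 0.0202 and 0.0158). Krt6a, Krt6b, Krt16, Krt78 and Krt24 were not called, and Krt6b had a slope of -0.32 ± 0.34. Krt1 and Krt10, keratins of the suprabasal epidermis, rose in labelled upper by 0.54 ± 0.06 and 0.42 ± 0.07 (edgeR adjusted p = 0.00276 and 0.0107). Lor, the other of the 3 suprabasal epidermis markers past the filter, was not called (slope 0.04 ± 0.07). The calls of Krt4, Krt13 and Krt10 were lost without individual 1 and without individual 8 (edgeR adjusted p = 0.225, 0.0827 and 0.0686 without individual 8), and that of Krt1 was kept in all 8 such fits. Without individual 8 the slope of Krt4 was 0.62. The 4 skeletal muscle markers (Myh3, Actc1, Acta1, Myog) also rose in labelled upper, by 1.16 to 1.66 log2 units per day (edgeR adjusted p = 0.00223 to 0.0229), and their part in the other slopes was not tested. The call was lost for Acta1 and Myog without individual 1, and for Actc1, Acta1 and Myog without individual 8. The same libraries gave the slopes of the 8 genes above, of which none was called, and whether the keratins and these genes differ in slope was not tested.

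The 8 genes past the filter differed in how closely they followed one another. Over the 16 libraries, Pearson's r between the log2 CPM of a gene and the mean of the other 7 was 0.960 for Cnfn, 0.958 for Sprr1a, 0.950 for Sprr3, 0.934 for Crct1, 0.910 for Psca, 0.894 for Sbsn, 0.779 for Plac8 and 0.147 for Krtdap. These values hold the difference between labels, which all genes but Krtdap share. Within the 8 libraries labelled lower, r was 0.996 for Sprr3, 0.986 for Cnfn, 0.981 for Sprr1a and 0.972 for Crct1, and 0.719 for Krtdap and 0.561 for Plac8. Within the 8 libraries labelled upper, where several genes have few counts, r was 0.847 for Sprr3, 0.700 for Cnfn, 0.577 for Sbsn, 0.376 for Psca and 0.145 for Sprr1a. It was -0.17 for Plac8, -0.21 for Krtdap and -0.54 for Crct1 there. Krtdap thus followed the others more closely within labelled lower than over both labels, and Plac8 less closely.

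Outside the 9 genes, those whose log2 CPM over the 16 libraries was most like the mean of the 8 were Ly6g6c and Endou (both r = 0.947), Cdsn (0.938), Elmod2 (0.936), Acbd5 (0.935), Krt78 (0.934), Ero1lb (0.930), Arg1 (0.929), Galt (0.922) and Hmgn3 (0.921). Endou reached at most 1.87 CPM outside the late libraries labelled lower and 2.70 to 11.9 CPM within them. Arg1 was at 4.75 to 14.6 CPM in the late libraries labelled lower, 0.430 to 1.48 CPM in the early ones and 0.177 to 0.784 CPM in those labelled upper. Elmod2 is a case of the same order with a small range, at 45.9 to 50.2, 38.9 to 42.2 and 35.3 to 39.5 CPM, so that r alone does not tell the size of a difference.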

How the data were processed

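The authors deposited 1 table of raw, whole-number counts per library, by gene symbol. Their making used TopHat2 2.0.6, Bowtie2 2.0.2 and HTSeq 0.5.3p9 on mm10, per the submitters' processing notes. Annotation and strand setting: not given in the sources used here. Libraries were poly(A), did not mark strand and were read as pairs, per the labels' protocols. The 5 summary lines of each table (no feature 12.6% to 15.1%, ambiguous 0.955% to 1.14%) entered neither library sizes nor tests. No pair of libraries was identical.

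Genes with at least 0.269 CPM (10 counts at the median depth) in at least 2 of 16 libraries went into edgeR 4.0.16 (R 4.3.3; TMM, quasi-likelihood F test, Benjamini-Hochberg adjustment over 16287 genes, threshold 0.05). The difference between labels was fitted over 16 libraries with a natural spline of stage with 3 degrees of freedom, and slopes over the 8 libraries of a label. For log2 CPM the prior count was 2. The fits were tested on simulated data. DESeq2 1.42.0, RLE factors, no filter, the individual as a block and leaving out 1 individual were the alternatives. Same-numbered libraries deviated together (correlations 0.121 to 0.278, all 8 above 0.1), and the labels give them the same embryo. Each stage has 1 embryo, so p-values measure the spread around a curve or line of stage.

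The 9 genes and the lists were chosen with earlier results of these data known. Named besides them are up to 4 genes per list with the smallest p among those called with a mean count of at least 50, and the 10 most alike. A gene of the named set and a marker are not reported here. The split of the lists by which libraries passed the filter, the muscle and keratin slopes without 1 individual and the sum of 3 dental epithelium genes were chosen after seeing the data.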

Additional observations from a re-analysis of the deposited data

Results flagged for a closer look

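In 3 cases 1 library lay apart from the other 7 of its label by a gap too wide for Dixon's test at 95%, which chance gives in about 1 of 20 groups. Krtdap was at 24.1 CPM in individual 5 labelled lower, with the next library at 13.5 CPM. Ivl was at 0.111 CPM in the same library, with the next at 0.0449 CPM, on 4 and 2 counts. Cnfn was at 0.512 CPM in individual 5 labelled upper, with the next library at 0.265 CPM (19 and 9 counts).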

How the results depend on the processing

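The number of genes called between labels was 5902, and it was 5875 with RLE factors, 6231 with DESeq2, 5745 with no filter and 4847 to 5534 without 1 individual. With the replicate block (the individual in place of the stage curve) it was 6122. Under it 16 of 16 differences between labels of the named list genes kept their call and direction, among them Rptn, whose direction the filter fixed. No block could be fitted for the slopes, where each stage is 1 individual. In labelled upper 999 genes were called with stage, against 2049 with DESeq2 and 192 to 1401 without 1 individual. In labelled lower 670 were called, against 1801 with DESeq2 and 34 to 758 without 1 individual. The cause was not tested. The late libraries labelled lower were above all others in 527 genes, in 536 on TMM library sizes, in 743 with the E16.5 libraries left out, and in 732 without individual 5 labelled lower, an alternative chosen after seeing the data. Leaving out libraries could only keep or raise this count. Slopes labelled upper that did not pass the test changed sign without 1 individual for Sprr1a (-0.17 to 0.016, positive without individual 2, 0.0075, or 7), Plac8 (-0.36 to 0.27, positive without individual 1) and Krtdap (-0.085 to 0.080, negative without individual 8). Of 331 alternatives of 28 results on single genes, 300 kept the direction and the presence or absence of a call. The 28 include the labelled upper slopes of the 8 genes past the filter, none of which was called. In 24 alternatives the call was lost, and in 3 it was gained, each time for Sbsn. Depth limits Ivl and, in labelled upper, Crct1 and Psca.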
